A study of Mus musculus with 18 samples.

Results

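Depletion of Prom1-expressing cells was carried out in 2 mouse models of liver cancer, and the quantity described here is the difference between its effects in them. For each gene it is the log2 change on depletion in the N-Ras+AKT model minus the log2 change on depletion in the DEN+CCl4 model, which is called the interaction below. A positive interaction means that depletion left the gene higher, relative to that model's own controls, in N-Ras+AKT tumours than in DEN+CCl4 tumours. All 12 bulk RNA-seq libraries entered the contrast, out of 18 samples in the series; the other 6 are single-cell samples, not used here. All 17013 genes with enough counts were tested, of 55335 in the count table.

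Tumour tissue came from 4 groups of 3 libraries. In the DEN+CCl4 model mice received N-nitrosodiethylamine, a liver carcinogen, at 1 mg/kg when 14 days old, and carbon tetrachloride, a hepatocyte toxin, at 0.2 ml/kg from 8 weeks of age for 12 to 16 weeks, 2 doses each week. In the N-Ras+AKT model 20 µg of a plasmid for N-RasV12, 20 µg of one for myristoylated AKT and 1.6 µg of one for Sleeping Beauty transposase were injected hydrodynamically into the tail vein, which delivers DNA to hepatocytes. Several 4 mg doses of tamoxifen, or olive oil as vehicle, followed once tumours had formed. The interval between the last dose and collection was 16 days in DEN+CCl4 and 6 days in N-Ras+AKT. The depletion libraries carry Prom1C-L/+;Rosa26DTA/+: a tamoxifen-dependent Cre and LacZ sit at Prom1, and Cre switches on diphtheria toxin A from Rosa26. The Cre is driven by Prom1 in whichever cells express it, so the depleted cells need not all be tumour cells. The strain label gives the controls this genotype too, while the design text names Prom1+/+;Rosa26DTA/+ littermates, so whether controls lacked the Cre, the tamoxifen or both is not settled. The labels give no sex, age at collection for N-Ras+AKT, litter or number of mice per library, and p-values measure the spread between these libraries.

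Prom1 encodes CD133, a membrane glycoprotein used to mark bile duct and progenitor-like cells and a population of liver tumour cells. DEN with CCl4 drives tumours on a background of repeated centrilobular injury and regeneration, whereas N-Ras and AKT act as oncogenes in the hepatocytes that take up the plasmids. Model, route of tumour induction and days since the last dose move together in these groups and cannot be told apart. In bulk tissue, fewer cells of a type and less RNA per cell cannot be told apart either, which applies to every cell type marker below.

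Prom1 itself (ENSMUSG00000029086.15, chr5:43993620-44102032, GRCm38) served as the check on the labels. It stood at 60.1, 76.7 and 48.9 CPM (read counts scaled to the effective size of each library) in the DEN+CCl4 control libraries 7, 8 and 13 and at 17.4, 39.98 and 35.7 CPM in the depletion libraries 6, 9 and 10. In the N-Ras+AKT model it was 45.4, 59.2 and 78.2 CPM in control libraries 3, 10 and 15 and 5.81, 16.5 and 2.17 CPM in depletion libraries 6, 11 and 17. Depletion libraries lay below the controls in both models, without overlap. Prom1 fell in N-Ras+AKT (log2 -2.90, SE 0.61, adjusted p = 0.00953, edgeR quasi-likelihood test with Benjamini-Hochberg adjustment), while the change in DEN+CCl4 was -0.99 (SE 0.57, adjusted p = 0.381). The interaction of -1.90 (SE 0.81) did not pass (adjusted p = 0.151), except without N-Ras+AKT depletion library 11, where it was -2.94 (adjusted p = 0.0177). The fall in Prom1 RNA was therefore not shown to differ between the models. Controls may have lacked the Cre and LacZ that sit at Prom1, which could itself change Prom1 RNA. Its level is therefore not a measure of cell loss alone, and the part of the altered allele was not tested. Library values below follow the same order.

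The libraries held 31306617 to 48055812 counts. Pairs of libraries in 1 group correlated at r = 0.966 to 0.984 over genes (log2 CPM). DEN+CCl4 depletion library 6 lay at -84.1 on the third principal component, against -13.8 and -0.1 for its group, and N-Ras+AKT depletion library 17 at -102.1 on the second, against -48.4 and -32.7, so counts are also given without this pair. A ribosomal RNA gene, CT010467.1, took 3.02 to 12.4% of counts in DEN+CCl4 controls and 0.586 to 1.77% after depletion in N-Ras+AKT, with 2.3 to 5.06% after depletion in DEN+CCl4 and 1.16 to 3.05% in N-Ras+AKT controls. The hepatocyte marker Alb, serum albumin, named after its values were seen, was at 53910 to 194000 CPM over the controls of both models. Its interaction was 0.08 (SE 0.29, adjusted p = 0.897 by edgeR). The controls differed between the models in such RNA: a list of mature hepatocyte genes summed to 310000 to 383300 CPM in DEN+CCl4 controls and 120900 to 138800 CPM in N-Ras+AKT controls.

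Depletion acted differently on 1970 of 17013 genes (11.6%) at an adjusted p under 0.05, of which 1357 (7.98%) had a positive interaction and 613 (3.6%) a negative one. Most positive genes combined a lower level after depletion in DEN+CCl4 with a higher level in N-Ras+AKT: 1231 of 1357 (90.7%) had estimates of opposite sign, with median log2 changes of -0.43 and 0.93. Of the negative genes, 529 of 613 (86.3%) had the reverse pattern, with medians of 0.35 and -0.86. Among the 15043 genes not called, 45.6% had estimates of opposite sign. The signs within a called gene are the 2 terms of the contrast that chose it and add no separate test.

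The 2 terms were not equally well supported. In N-Ras+AKT depletion changed 4027 genes (23.7%; 12.8% higher and 10.8% lower), and in DEN+CCl4 63 genes (0.37%; 0.112% higher and 0.259% lower). Accordingly 1075 of the positive genes and 442 of the negative ones passed the depletion test in N-Ras+AKT alone, 24 and 12 passed it in DEN+CCl4 alone, and 250 and 154 passed in neither. The median SE of the interaction was 0.31 for positive and 0.30 for negative genes. The count fell to 895, 1130 and 1181 without DEN+CCl4 control 7, 8 or 13, to 986 without DEN+CCl4 depletion 9, to 1176 and 1060 without N-Ras+AKT control 3 or 15, and to 1232 and 939 without N-Ras+AKT depletion 6 or 17. Without the pair of libraries that stood apart it was 844, of which 749 were also called with all libraries, each in the same direction.

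**Figure D1:**
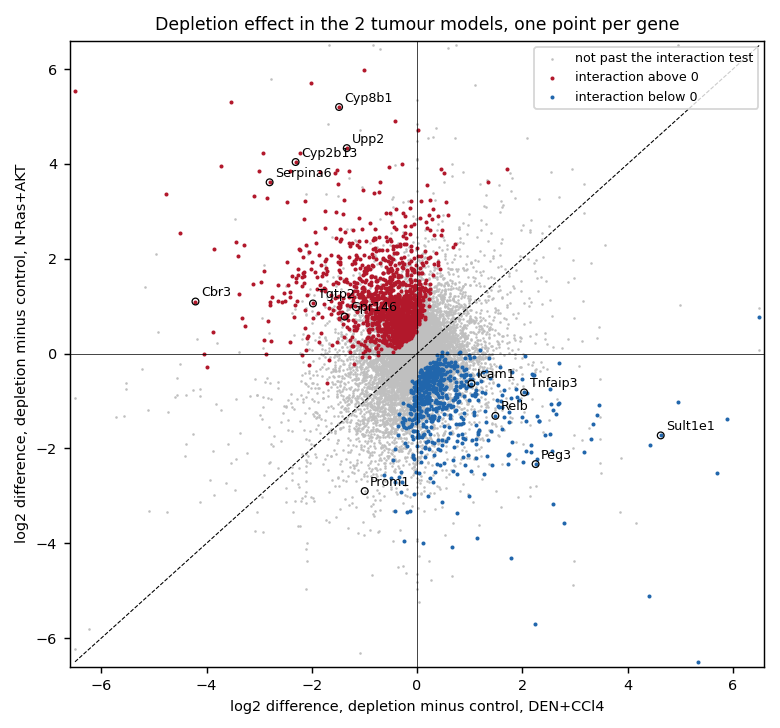
Log2 change on depletion in DEN+CCl4 (x axis) against N-Ras+AKT (y axis), 1 point per tested gene, with the diagonal marking equal effects; genes past the interaction test are coloured by direction and 11 genes beyond 6.5 are drawn at the edge. The 1357 positive genes lie above the diagonal, mostly in the upper left, and the 613 negative genes below it, mostly in the lower right.

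Among the called genes, 13 passed the depletion test in both models with opposite signs. Gpr146 (chr5:139377697-139396415), an orphan receptor linked to plasma cholesterol, had the smallest adjusted p of all genes. Its levels were 122, 112 and 105 CPM in DEN+CCl4 controls and 41.0, 45.2 and 44.2 CPM after depletion. In N-Ras+AKT they were 27.3, 30.6 and 28.7 CPM in controls and 46.7, 44.0 and 58.3 CPM after depletion. Groups did not overlap within either model, and the gap between the models narrowed from -1.97 in controls to 0.19 after depletion: Gpr146 fell by 1.38 on the log2 scale in DEN+CCl4 (SE 0.12, adjusted p = 0.00118), rose by 0.78 in N-Ras+AKT (SE 0.12, adjusted p = 0.00334), and had an interaction of 2.16 (SE 0.17, adjusted p = 0.000351).

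Serpina6 (chr12:103646630-103657212), which encodes the cortisol-binding globulin that hepatocytes secrete, nearly exchanged its levels between the models. It was at 118, 98.4 and 82.7 CPM in DEN+CCl4 controls and 7.28, 12.4 and 23.1 CPM after depletion, against 5.26, 10.6 and 11.0 CPM in N-Ras+AKT controls and 83.6, 75.4 and 169 CPM after depletion. All depletion libraries lay outside the range of their controls, on opposite sides. The log2 changes were -2.80 (SE 0.47) and 3.61 (SE 0.48), and the interaction was 6.42 (SE 0.67, adjusted p = 0.0038). Cyp2b13, a cytochrome P450 of the female-biased Cyp2b group, went from between 51.6 and 55.9 CPM in DEN+CCl4 controls to between 6.55 and 14.2 CPM after depletion, and from between 0.033 and 0.258 CPM to between 1.74 and 3.7 CPM in N-Ras+AKT. Its interaction was 6.35 (SE 0.64, adjusted p = 0.0038). Reads shared with the near-identical Cyp2b9 and Cyp2b10 make the split between these genes uncertain.

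The doublecortin-like kinase gene Dclk3 had an interaction of 2.92 (SE 0.31) and the calcineurin regulator gene Rcan2 one of 3.34 (SE 0.39). Rcan2 stood at 2.7 to 3.47 CPM in DEN+CCl4 controls and 0.546 to 0.679 CPM after depletion, and at 2.28 to 5.08 and 6.74 to 8.50 CPM in N-Ras+AKT. The interferon-induced GTPase genes Tgtp2 (3.04, SE 0.38) and Gbp6 (2.69, SE 0.35) belonged to the same 8 positive genes, as did C77080 (1.10, SE 0.15). The 5 negative ones were Icam1 (-1.67, SE 0.19), Slc11a2 (-1.26, SE 0.15), Nfkb2 (-1.77, SE 0.22), Relb (-2.80, SE 0.38) and Fam171b (-1.39, SE 0.24). Slc11a2, an iron transporter, rose from between 21.04 and 22.7 CPM to between 40.04 and 45.7 CPM in DEN+CCl4 and fell from between 39.98 and 51.9 CPM to between 34.3 and 38.6 CPM in N-Ras+AKT. All 13 passed the interaction test under each of the 20 other settings, every single-library omission included. Gbp6 and C77080 were named after their values were seen.

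**Figure D2:**
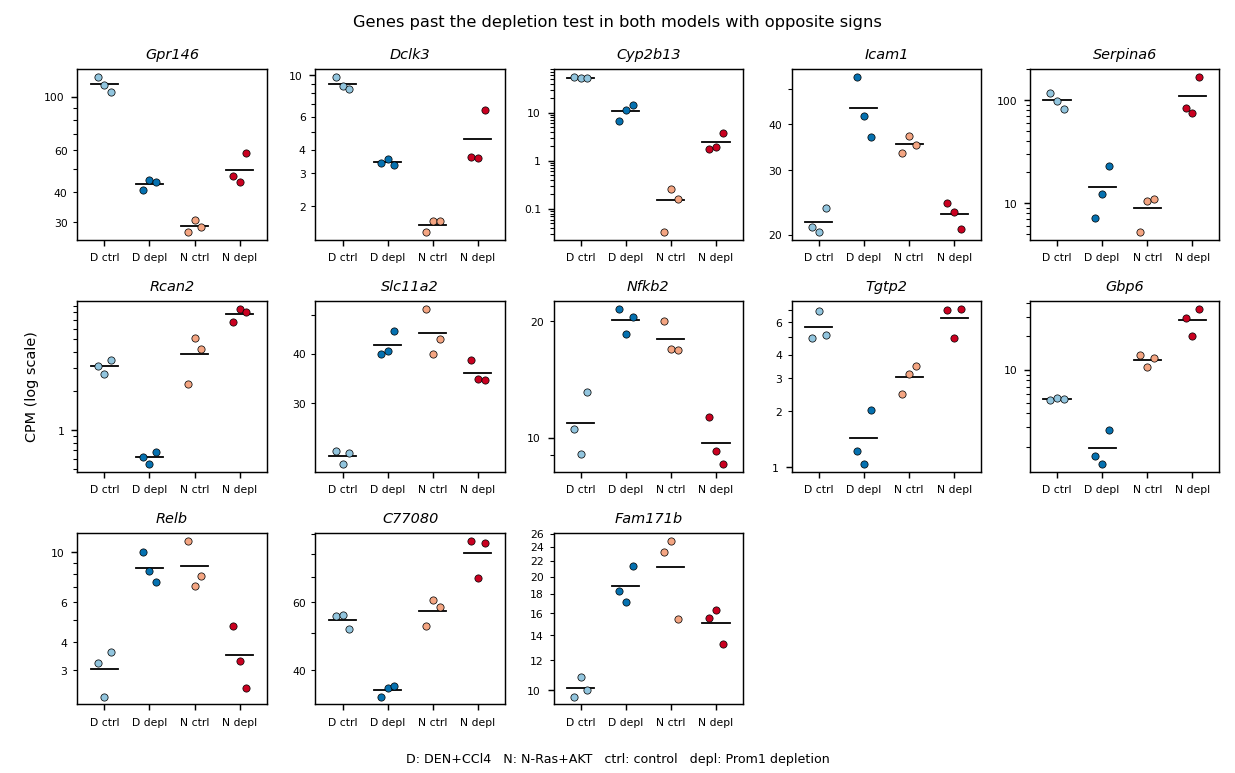
CPM on a log scale in each library for the genes that passed the depletion test in both models with opposite signs; points are libraries and lines group means. In Gpr146, Serpina6 and Rcan2 the DEN+CCl4 depletion points lie below their controls and the N-Ras+AKT ones above, and in Icam1, Nfkb2 and Relb the order is reversed.

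Interferon response genes had a positive interaction, in a count that stayed within 1.5 times when any single library was left out. Interferons act on promoter elements known as ISRE and GAS, and induce GTPases of the Gbp and Irg families, antiviral proteins and the antigen-processing machinery. Of 33 listed genes all were tested, 19 had a positive and 0 a negative interaction that passed, and the estimate was above 0 in all 33. The median interaction was 1.19, against -0.03 over all genes, with medians of -0.73 in DEN+CCl4 and 0.53 in N-Ras+AKT. The called count ranged from 15 to 24 over the other settings and was 15 without the pair of libraries that stood apart. Within the single models 4 members fell in DEN+CCl4 and 15 rose in N-Ras+AKT.

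Irf7 (chr7:141262706-141266481), which amplifies interferon production, was at 36.4, 35.1 and 42.2 CPM in DEN+CCl4 controls and 14.9, 23.1 and 30.4 CPM after depletion, and at 22.4, 18.4 and 17.7 CPM in N-Ras+AKT controls and 39.6, 34.4 and 58.2 CPM after depletion. The groups did not overlap in either model. Its interaction was 1.91 (SE 0.35, adjusted p = 0.0119 by edgeR). Gbp3, a guanylate-binding protein gene, was at 8.85 to 12.1 CPM in DEN+CCl4 controls and 3.24 to 6.48 CPM after depletion, against 4.26 to 4.62 and 12.0 to 23.6 CPM in N-Ras+AKT. Its interaction reached 3.16 (SE 0.39, adjusted p = 0.00475). Igtp, another GTPase of this response, had 2.07 (SE 0.27) and Gbp11 5.36 (SE 0.57). Gbp genes are near-identical in places, so their counts may be shared. Apol9a, an interferon-inducible apolipoprotein L gene, was at 38.6 to 45.7, 15.8 to 27.8, 13.5 to 16.3 and 51.9 to 88.3 CPM over the 4 groups in the same order. Its interaction was 2.97 (SE 0.33, adjusted p = 0.0038). Irf7, Igtp and Gbp11 were picked after their values were seen.

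Not every member moved in both models. The peptide transporter gene Tap1, named after its values were seen, was at 24.7 to 28.2 CPM in DEN+CCl4 controls and 11.9 to 15.3 CPM after depletion, where it fell (log2 -0.99, SE 0.15, adjusted p = 0.0313). In N-Ras+AKT it was at 17.1 to 22.4 and 16.8 to 24.1 CPM, a change of 0.06 (SE 0.15, adjusted p = 0.798). The antiviral genes Ifit2 and Rsad2 had interactions of 0.21 and 0.15 and did not pass, and both had estimates below 0 in both models; they were picked as members that did not pass.

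The following 120-base stretches upstream of RefSeq starts (GRCm38.p6) show interferon-type elements in 3 genes with a positive interaction. Capitals mark the core of the ISRE on either strand, spelled GAAA, any 2 bases, GAAA. They lie at chr3:142559924-142560043 on the plus strand for Gbp3, chr11:49064213-49064332 on the minus strand for Tgtp2 and chr15:77411081-77411200 on the minus strand for Apol9a.
Gbp3: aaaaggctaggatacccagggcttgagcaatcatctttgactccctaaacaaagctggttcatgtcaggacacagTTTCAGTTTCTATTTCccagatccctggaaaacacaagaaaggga
Tgtp2: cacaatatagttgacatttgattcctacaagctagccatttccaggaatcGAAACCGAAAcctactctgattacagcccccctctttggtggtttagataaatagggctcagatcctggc
Apol9a: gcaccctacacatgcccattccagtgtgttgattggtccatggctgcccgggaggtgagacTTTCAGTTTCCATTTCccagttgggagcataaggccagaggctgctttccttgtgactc
Gbp3 and Apol9a each hold 2 overlapping matches, within 45 and 59 bases of the start, and Tgtp2 holds 1 match that begins 70 bases before it. Over the 250 bases before the start, this core was present in 2.81% of the 11728 promoters of tested genes found in the RefSeq table, in 6.32% of 1028 positive and in 1.61% of 434 negative genes. It was present in 14 of 26 interferon list promoters, and in 6 of the 15 that belonged to called members. These letters are a description and not evidence of binding.

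Genes of NF-kB signalling went the other way. NF-kB dimers of RELA, RELB and their partners switch on inflammatory genes together with their own inhibitors; RELB pairs with the NFKB2 product in the noncanonical branch. Of 24 listed genes 23 were tested, and 8 had a negative and 0 a positive interaction that passed: Nfkb1, Nfkb2, Relb, Nfkbie, Nfkbiz, Tnfaip3, Cxcl1 and Icam1. The median interaction was -0.79, with medians of 0.71 in DEN+CCl4 and -0.52 in N-Ras+AKT, and 15 of 23 members had the signs of that pattern. The count was 6 to 11 over the other settings and 6 without the pair of libraries that stood apart. In DEN+CCl4 5 members rose, and in N-Ras+AKT 6 fell.

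Nfkb2 (chr19:46304320-46312385) was at 10.5, 9.07 and 13.2 CPM in DEN+CCl4 controls and 21.5, 18.5 and 20.4 CPM after depletion, and at 20.0, 17.0 and 16.9 CPM in N-Ras+AKT controls and 11.3, 9.25 and 8.53 CPM after depletion. Each depletion group thus overlapped the other model's controls. Relb (chr7:19606217-19629438) had 3.24, 2.29 and 3.62 CPM, then 9.99, 8.28 and 7.37 CPM in DEN+CCl4, and 11.2, 7.11 and 7.83 CPM, then 4.73, 3.30 and 2.50 CPM in N-Ras+AKT. It showed the same arrangement, without overlap between depletion and control in either model. Icam1, the leukocyte adhesion receptor gene, rose from between 20.4 and 23.6 CPM to between 37.0 and 53.9 CPM in DEN+CCl4 and fell from between 33.4 and 37.2 CPM to between 20.7 and 24.4 CPM in N-Ras+AKT.

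Tnfaip3 encodes A20, a deubiquitinase that restrains NF-kB. Its levels were 8.44, 7.55 and 13.2 CPM in DEN+CCl4 controls and 60.1, 27.9 and 31.9 CPM after depletion, against 17.8, 16.9 and 20.4 CPM and 10.1, 13.3 and 7.94 CPM in N-Ras+AKT. The interaction was -2.85 (SE 0.44, adjusted p = 0.00824 by edgeR). It rose by 2.03 in DEN+CCl4 (SE 0.32, adjusted p = 0.0355), and its change of -0.82 in N-Ras+AKT did not pass (SE 0.30, adjusted p = 0.0748). Cxcl1, a neutrophil-attracting chemokine, was at 46.0 to 76.3 CPM in DEN+CCl4 controls and 124 to 265 CPM after depletion, and at 52.1 to 61.0 and 25.7 to 36.9 CPM in N-Ras+AKT. Its interaction was -2.42 (SE 0.40, adjusted p = 0.00935). Nfkbie, an inhibitor of NF-kB, had -1.62 (SE 0.27), whereas Rela, at 0.05, did not pass. The calls of Nfkb1 and Nfkbiz were less stable, with adjusted p up to 0.0876 and 0.125 under other settings, while Nfkb2, Relb, Nfkbie, Tnfaip3, Cxcl1 and Icam1 passed in every one. Nfkb1, Nfkbie, Nfkbiz and Rela were named after their values were seen.

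The 120 bases upstream of the RefSeq starts of 3 of these genes (GRCm38.p6) are printed to show their kappa-B-type elements. Capitals mark GGG, any 3 bases, TTCC on either strand. They lie at chr19:46304617-46304736 on the plus strand for Nfkb2, chr10:19015411-19015530 on the minus strand for Tnfaip3 and chr5:90891125-90891244 on the plus strand for Cxcl1. The Nfkb2 stretch lies inside the gene interval given above, which comes from GENCODE.
Nfkb2: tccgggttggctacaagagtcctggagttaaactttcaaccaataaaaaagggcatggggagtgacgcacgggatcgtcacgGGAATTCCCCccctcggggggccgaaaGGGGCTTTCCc
Tnfaip3: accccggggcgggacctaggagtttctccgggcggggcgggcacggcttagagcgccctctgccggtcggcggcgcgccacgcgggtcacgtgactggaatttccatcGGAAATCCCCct
Cxcl1: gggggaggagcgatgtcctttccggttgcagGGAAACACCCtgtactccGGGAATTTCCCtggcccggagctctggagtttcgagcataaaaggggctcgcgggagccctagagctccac
Nfkb2 holds 2 matches, Tnfaip3 1 and Cxcl1 3, of which 2 overlap on opposite strands. Over 250 bases before the start, this element was found in 5.17% of all 11728 promoters, 4.96% of those of positive genes and 7.14% of those of negative genes. On the NF-kB list 9 of 16 promoters held it, and among called members 4 of 5 (Nfkb2, Tnfaip3, Cxcl1 and Nfkbie, not Icam1). GAS-type TTCNNNGAA was in 6.22% of all, 7.88% of positive and 5.99% of negative promoters. Both elements and the ISRE were chosen for search after results were known. Among other motifs searched on both strands, TATAAA was in 10.4% of positive and 7.3% of all promoters and the ETS core CCGGAAG in 7% and 12.8%.

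**Figure D3:**
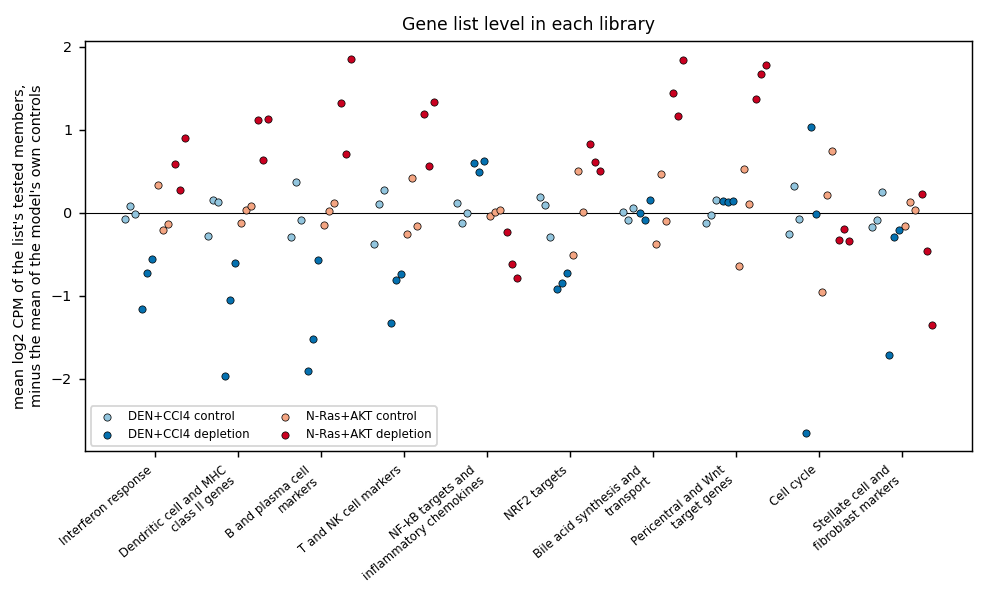
Mean log2 CPM of each list's tested members in each library, minus the mean of that model's own 3 controls, by list and group. Interferon, MHC class II, B cell and T cell lists lie below 0 in all DEN+CCl4 depletion libraries and above 0 in all N-Ras+AKT ones, the NF-kB list has the reverse arrangement, and the cell cycle list spreads from -2.65 to 1.04 within the DEN+CCl4 depletion group.

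MHC class II molecules present peptides to CD4 T cells and are made by dendritic cells, B cells and macrophages. Of 18 listed dendritic cell and class II genes 16 were tested, 12 had a positive and 0 a negative interaction that passed, and the median was 2.25. H2-Aa, a class II alpha chain gene, was at 12.5, 20.2 and 20.5 CPM in DEN+CCl4 controls and 2.09, 6.38 and 8.08 CPM after depletion, and at 27.2, 29.9 and 28.5 CPM in N-Ras+AKT controls and 69.7, 46.8 and 50.3 CPM after depletion. Its interaction was 2.64 (SE 0.53, adjusted p = 0.0153 by edgeR), and groups did not overlap within either model. H2-Ob, a class II modulator gene of B cells, had 4.46 (SE 0.73, adjusted p = 0.00919) at levels of 0.0696 to 1.69 CPM. The summed level of the list was 86.15 to 130.3 CPM in DEN+CCl4 controls and 25.11 to 65.88 CPM after depletion, and 113.8 to 123.4 and 177.4 to 274.7 CPM in N-Ras+AKT. The count of 12 became 4 without DEN+CCl4 control 8, 6 without N-Ras+AKT control 3 or 15 or depletion 6, 5 without depletion 17, and 6 without the pair that stood apart. H2-Aa was named after its values were seen.

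All 18 B and plasma cell genes had interactions above 0 and 13 passed, with a median of 2.74. Cd79a, part of the B cell receptor, was at 0.641, 1.38 and 1.01 CPM in DEN+CCl4 controls and 0.244, 0.0287 and 0.524 CPM after depletion, then at 0.198, 0.203 and 0.202 CPM in N-Ras+AKT controls and 0.98, 0.749 and 1.87 CPM after depletion. Its interaction was 4.50 (SE 0.90, adjusted p = 0.0135). Ighm, the IgM heavy chain gene, had 3.97 (SE 0.66, adjusted p = 0.00996), from 5.59 to 9.98 and 2.27 to 5.40 CPM in DEN+CCl4 and from 1.29 to 1.62 and 3.96 to 14.8 CPM in N-Ras+AKT. Immunoglobulin genes share sequence, and their counts may be shared. The summed level, 436.3 to 554.8 and 301.6 to 389.7 CPM in DEN+CCl4, was 224.7 to 246.8 and 218.0 to 266.4 CPM in N-Ras+AKT, with overlap in the latter. Sdc1, which hepatocytes express as well, made up 119.5 to 278 CPM of it and had an interaction of 0.13 (SE 0.29). The count of 13 was 7 without DEN+CCl4 control 8, 6 without depletion 9, 6 and 5 without N-Ras+AKT control 3 or 15, 8 and 5 without depletion 6 or 17, and 4 without the pair that stood apart. Ighm and Sdc1 were named after their values were seen.

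T and NK cell genes had a median of 2.62 over 19 tested of 25 listed, 8 of them called, all positive. They were scarce: the whole list summed to 7.334 to 11.08 CPM in DEN+CCl4 controls and 4.318 to 5.49 CPM after depletion, and to 8.381 to 11.54 and 13.54 to 24.66 CPM in N-Ras+AKT. Cd4 was at 0.579 to 0.781 and 0.104 to 0.259 CPM, then 0.465 to 0.718 and 0.749 to 1.17 CPM, with an interaction of 2.72 (SE 0.54, adjusted p = 0.0133); it was named after its values were seen. The count of 8 fell to between 1 and 4 without any one of DEN+CCl4 control 8 or 13, depletion 6 or 9, N-Ras+AKT control 3 or 15, depletion 6 or 17, or the pair, and to 3 with a filter of 1 CPM in 3 libraries. No tested marker of these immune lists was at 0 in all 3 libraries of a group. The part of cell type content in the interferon and class II interactions was not tested.

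Macrophage and endothelial genes were less uniform. Of 22 macrophage and Kupffer cell genes 10 had a positive and 2 a negative interaction that passed, with a median of 1.11. Folr2, a folate receptor of resident macrophages, was at 4.22 to 5.24 and 2.89 to 5.12 CPM in DEN+CCl4, and at 1.40 to 4.16 and 7.91 to 15.4 CPM in N-Ras+AKT, where it rose. Its interaction was 2.28 (SE 0.51, adjusted p = 0.0198 by edgeR) and did not pass without the pair of libraries that stood apart (adjusted p = 0.0721). The lipopolysaccharide co-receptor gene Cd14 had -2.37 (SE 0.51, adjusted p = 0.0183), from 16.7 to 20.6 and 28.9 to 48.8 CPM in DEN+CCl4 and from 45.8 to 109 and 19.1 to 46.2 CPM in N-Ras+AKT, where the ranges overlapped; without DEN+CCl4 control 7 its adjusted p was 0.05, and without the pair 0.0576. The list summed to 549.4 to 563.7 and 471.3 to 614.5 CPM in DEN+CCl4, and to 403.4 to 615.5 and 810.8 to 1021 CPM in N-Ras+AKT. The positive count of 10 was 4 without any one DEN+CCl4 control, 6 and 1 without DEN+CCl4 depletion 6 or 9, 6 and 4 without N-Ras+AKT control 3 or 15, 1 without depletion 17, 0 without the pair, and 6 with no filter on low counts.

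Of 24 endothelial genes 9 had a positive and 1 a negative interaction, with a median of 0.83. Stab2, a scavenger receptor of sinusoidal endothelium, was at 89.3, 90.3 and 85.2 CPM in DEN+CCl4 controls and 27.7, 49.0 and 66.2 CPM after depletion, and at 12.7, 19.9 and 12.0 CPM in N-Ras+AKT controls and 36.7, 28.5 and 41.8 CPM after depletion. Its interaction was 2.15 (SE 0.41, adjusted p = 0.013), and that of Oit3, another sinusoidal gene, was 2.36 (SE 0.44, adjusted p = 0.013); both passed under each other setting. The pan-endothelial kinase gene Tie1, named after its values were seen, had 0.74 (SE 0.32, adjusted p = 0.144), and passed without DEN+CCl4 depletion 10 (adjusted p = 0.0348). The list summed to 740.1 to 850.4 and 314.6 to 560.6 CPM in DEN+CCl4, and to 286.3 to 417.0 and 330.5 to 352.1 CPM in N-Ras+AKT. The count of 9 was 5, 4 and 4 without DEN+CCl4 control 7, 8 or 13, 4 without depletion 9, 5 without N-Ras+AKT control 15, 5 and 4 without depletion 6 or 17, and 2 without the pair.

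Several lists of hepatocyte metabolic genes held positive calls. CYP7A1 starts the classical route of bile acid synthesis and CYP8B1 sets the share of cholic acid. Of 24 bile acid genes 13 had a positive and 0 a negative interaction that passed, with a median of 1.14, and medians of 0.11 in DEN+CCl4 and 1.33 in N-Ras+AKT. Cyp8b1 was at 6.59, 5.38 and 3.27 CPM in DEN+CCl4 controls and 0.383, 1.95 and 3.02 CPM after depletion, against 0.643, 3.68 and 4.08 CPM and 106, 42.9 and 158 CPM in N-Ras+AKT. Its interaction was 6.68 (SE 1.09, adjusted p = 0.00996). Cyp7a1 was at 29.1 to 56.7 and 5.64 to 21.1 CPM in DEN+CCl4 and at 10.7 to 29.9 and 131 to 245 CPM in N-Ras+AKT, with an interaction of 4.53 (SE 0.73, adjusted p = 0.00986). Both rose in N-Ras+AKT and neither passed in DEN+CCl4 (adjusted p = 0.335 and 0.155). The count of 13 was 6, 8 and 5 without DEN+CCl4 control 7, 8 or 13, 5 without depletion 9, 5 without N-Ras+AKT control 15, 6 without depletion 17 and 8 without the pair.

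Pericentral genes, which hepatocytes around the central vein switch on under Wnt signalling, had 11 positive and 1 negative interaction among 21 tested of 22 listed, with a median of 1.58. Glul, glutamine synthetase, was at 47.0, 61.5 and 52.98 CPM in DEN+CCl4 controls and 48.3, 28.9 and 45.3 CPM after depletion, and at 45.9, 131 and 74.2 CPM in N-Ras+AKT controls and 428, 460.2 and 672 CPM after depletion. Its change in DEN+CCl4 was -0.40 (SE 0.34, adjusted p = 0.566), and in N-Ras+AKT it rose by 2.63 (SE 0.36, adjusted p = 0.00334), giving an interaction of 3.03 (SE 0.49, adjusted p = 0.00929). The ammonium transporter gene Rhbg had 3.42 (SE 0.58, adjusted p = 0.0094), at 1.21 to 1.57 and 0.46 to 0.987 CPM in DEN+CCl4 and 0.578 to 2.17 and 8.08 to 8.84 CPM in N-Ras+AKT. The list summed to 687.4 to 1609 CPM in N-Ras+AKT controls and 4448 to 7290 CPM after depletion. The count of 11 was 7 without N-Ras+AKT control 15 and 5 without the pair. Glul was named after its values were seen.

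Some genes of the same zone had estimates of like size in both models. Oat, ornithine aminotransferase, was at 28.4, 34.9 and 41.4 CPM in DEN+CCl4 controls and 271, 194 and 75.0 CPM after depletion, and at 59.1, 119.6 and 123 CPM in N-Ras+AKT controls and 257, 699 and 790.3 CPM after depletion. Its log2 changes were 2.37 (SE 0.52, adjusted p = 0.0707) and 2.54 (SE 0.53, adjusted p = 0.00865), and its interaction was 0.17 (SE 0.70, adjusted p = 0.906 by edgeR). Cyp2c29 and Cyp2c50, cytochromes that the nuclear receptor CAR can induce, had interactions of -0.21 (SE 0.79) and 0.19 (SE 0.68), with estimates of 3.17 and 2.50 in DEN+CCl4 that did not pass and of 2.96 and 2.69 in N-Ras+AKT that did. SEs of this size do not show that the effects were equal. Oat, Cyp2c29 and Cyp2c50 were chosen after their values were seen.

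Xenobiotic-metabolising genes had 14 positive and 0 negative calls among 30, with a median of 1.29; the count was 9 without the pair that stood apart. Sult2a8, a sulfotransferase gene for bile acids, reached an interaction of 7.72 (SE 1.24, adjusted p = 0.00984), from 5.70 to 16.6 and 2.12 to 3.67 CPM in DEN+CCl4 and from 0.578 to 2.06 and 8.72 to 127 CPM in N-Ras+AKT. Cyp2b9 had 4.13 (SE 0.77), from 387 to 555 and 193 to 393 CPM, and from 2.54 to 13.9 and 75.8 to 154 CPM. Enzymes outside this list behaved likewise. Upp2, a uridine phosphorylase of liver, was at 102, 75.3 and 86.6 CPM in DEN+CCl4 controls and 38.5, 23.97 and 42.1 CPM after depletion, and at 5.51, 10.2 and 8.82 CPM and 76.4, 173 and 245 CPM in N-Ras+AKT, with an interaction of 5.67 (SE 0.57, adjusted p = 0.0038). Otc, the urea cycle enzyme ornithine transcarbamylase, had 3.48 (SE 0.48, adjusted p = 0.00727), from 199.7 to 239 and 44.3 to 116 CPM in DEN+CCl4 and from 38.6 to 66.9 and 162 to 282 CPM in N-Ras+AKT. Hpd, a tyrosine-degrading enzyme, had 2.69 (SE 0.54, adjusted p = 0.0145) with a DEN+CCl4 change of 0.23 (SE 0.38) and a rise of 2.92 (SE 0.40) in N-Ras+AKT.

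NRF2 is the transcription factor that answers electrophilic stress with glutathione and NADPH-producing enzymes. Of its 22 listed targets 10 had a positive and 0 a negative interaction that passed, with a median of 1.2, and medians of -0.65 in DEN+CCl4 and 0.60 in N-Ras+AKT. Gclc, the catalytic subunit that limits glutathione synthesis, was at 394, 410.2 and 310.4 CPM in DEN+CCl4 controls and 139, 153 and 182 CPM after depletion, where it fell by 1.23 (SE 0.19, adjusted p = 0.0313). In N-Ras+AKT it was at 350.0, 533 and 481 CPM in controls and 586, 469 and 464 CPM after depletion, with overlap and a change of 0.15 (SE 0.19, adjusted p = 0.589). Its interaction was 1.39 (SE 0.27, adjusted p = 0.0128). Cbr3, a carbonyl reductase gene, had 5.31 (SE 0.71, adjusted p = 0.00727), from 10.7 to 28.4 and 1.01 to 1.33 CPM in DEN+CCl4, where it fell, and from 8.63 to 35.2 and 40.4 to 55.2 CPM in N-Ras+AKT. The glutathione transferase genes Gstm3 and, outside this list, Gsta1 had 4.03 (SE 0.72) and 4.47 (SE 0.79). Gstm3 was at 115 to 224 and 17.0 to 40.1 CPM in DEN+CCl4 and at 203 to 929 and 1381 to 1858 CPM in N-Ras+AKT. Glutathione transferase genes share sequence, so single members are uncertain. The count was 16 without N-Ras+AKT control 10 and 16 by DESeq2. Gclc was named after its values were seen.

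Of the lipid lists, cholesterol synthesis had 0 of 24 genes called, with a median of -0.12. Fatty acid synthesis had 7 positive calls of 22 (median 1.36) and fatty acid oxidation 11 of 25 (median 0.91), with 0 negative in either. Me1, malic enzyme, which supplies NADPH for lipogenesis, was at 30.9, 43.8 and 23.6 CPM in DEN+CCl4 controls and 19.7, 22.5 and 25.8 CPM after depletion, and at 106, 165 and 139 CPM in N-Ras+AKT controls and 690.4, 283 and 714 CPM after depletion. Its interaction was 2.57 (SE 0.47, adjusted p = 0.0121 by edgeR). Fasn, fatty acid synthase, had 2.51 (SE 0.56, adjusted p = 0.0194) and did not pass without N-Ras+AKT control 15 (adjusted p = 0.0519) or without the pair (adjusted p = 0.0729). Outside these lists, Car3, a carbonic anhydrase of fat and liver, had 6.06 (SE 0.98, adjusted p = 0.00996), from 45.0 to 94.8 and 0.731 to 10.2 CPM in DEN+CCl4 and from 113 to 165 and 346 to 944 CPM in N-Ras+AKT. The synthesis count of 7 was 4 without DEN+CCl4 control 7 or 8, depletion 6 or 9, N-Ras+AKT control 3 or depletion 6, 3 without control 15 or without the pair, and 13 by DESeq2. The oxidation count of 11 was 4, 5 and 5 without DEN+CCl4 control 7, 8 or 13, 3 without depletion 9, 3 without N-Ras+AKT control 3 or 15, 7 and 4 without depletion 6 or 17, 5 without the pair, 7 with upper-quartile scaling and 6 with no filter on low counts.

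The growth hormone and sex-biased list, whose genes follow pituitary growth hormone pulses and differ between male and female liver, had 11 positive and 2 negative calls among 26 tested of 27, with a median of 1.88. Outside the list, the urinary protein gene Mup22 had 7.69 (SE 1.32, adjusted p = 0.0115), from 4.95 to 26.8 and 0.316 to 2.07 CPM in DEN+CCl4 and from 7.87 to 49.9 and 145 to 764 CPM in N-Ras+AKT. Mup genes are near-identical and counts per member are uncertain. Also outside it and negative, Sult1e1, the estrogen sulfotransferase gene, was at 5.66, 16.4 and 11.1 CPM in DEN+CCl4 controls and 469.7, 242 and 113 CPM after depletion, against 30.2, 37.0 and 14.9 CPM and 7.86, 16.1 and 0.857 CPM in N-Ras+AKT, and had -6.36 (SE 1.23, adjusted p = 0.0144). The sexes of the mice are not in the labels and their part was not tested. The count of 11 was 6 without DEN+CCl4 control 7, 7 without depletion 9, 6 without N-Ras+AKT control 15 or depletion 17, 5 without the pair and 7 with no filter on low counts.

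**Figure D4:**
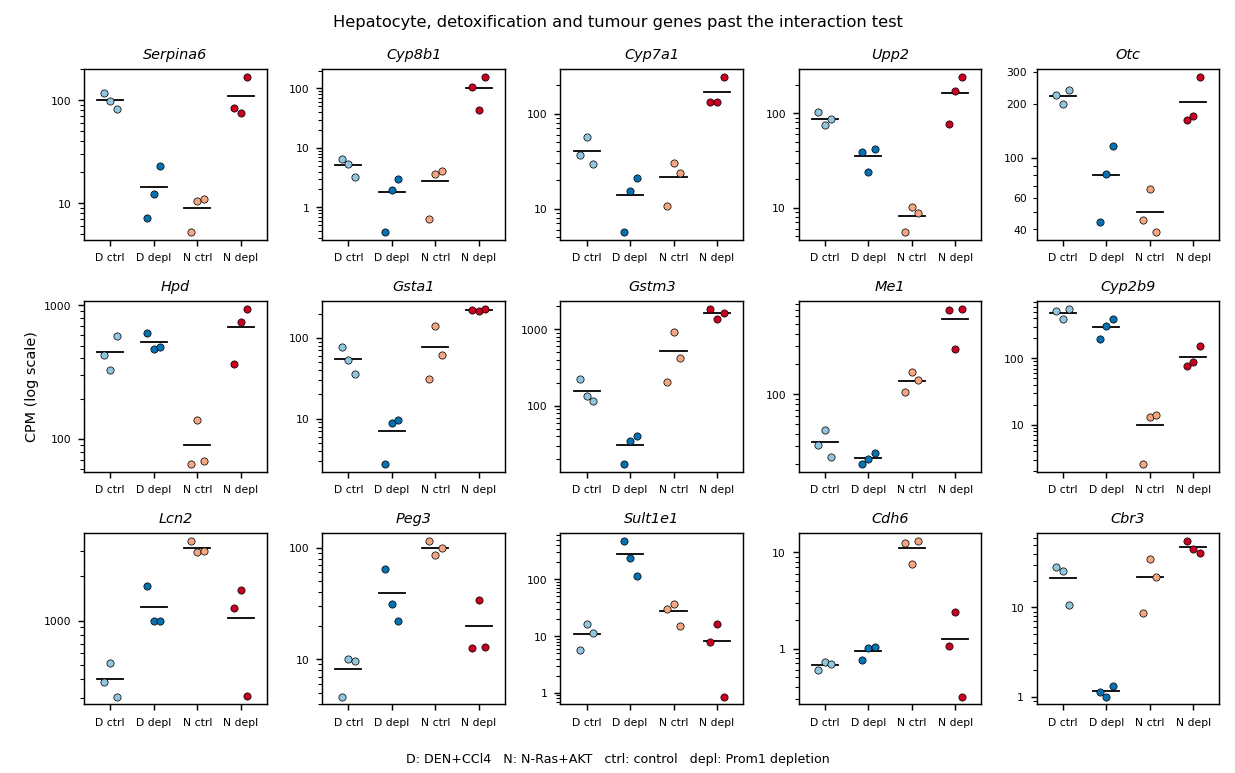
CPM on a log scale in each library for hepatocyte, detoxification and tumour genes past the interaction test; points are libraries and lines group means. Serpina6, Cyp8b1, Cyp7a1, Upp2 and Otc reach levels after depletion in N-Ras+AKT that overlap or exceed the range of the DEN+CCl4 controls, Cbr3 falls in DEN+CCl4, and Peg3 and Lcn2 rank in the opposite order.

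Genes with a negative interaction included epithelial and secreted tumour genes. Lcn2, the iron-scavenging lipocalin of injured epithelium, was at 384, 516 and 304 CPM in DEN+CCl4 controls and 1710, 992 and 991 CPM after depletion, and at 3479, 2936 and 2990 CPM in N-Ras+AKT controls and 1219, 1613 and 307 CPM after depletion. The control gap of 2.96 (SE 0.50) shrank to -0.23 (SE 0.47), with an interaction of -3.20 (SE 0.68, adjusted p = 0.0173 by edgeR). Peg3, a paternally expressed zinc finger gene, was at 4.63, 10.1 and 9.69 CPM, then 63.9, 31.3 and 21.9 CPM in DEN+CCl4, and at 114, 86.2 and 100.4 CPM, then 12.6, 34.4 and 12.9 CPM in N-Ras+AKT. Its interaction was -4.58 (SE 0.71, adjusted p = 0.00926). Rgs7bp, a regulator of G protein signalling complexes, had -4.63 (SE 0.66) and the tight junction gene Marveld3 -3.86 (SE 0.53). Mthfd2, a mitochondrial folate enzyme, had -2.33 (SE 0.45), at 0.827 to 1.10 and 1.36 to 2.64 CPM in DEN+CCl4 and 9.46 to 13.2 and 2.89 to 6.5 CPM in N-Ras+AKT. Lcn2, Peg3, Rgs7bp, Marveld3, Mthfd2 and Sult1e1 passed under all other settings.

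Bile duct and progenitor genes, Prom1 among them, had 5 negative and 0 positive calls among 22 tested of 23, with a median of -1.10, and medians of -0.59 in DEN+CCl4 and -2.12 in N-Ras+AKT, where 16 fell. The group thus had lower estimates in both models. Cdh6, a cadherin, was at 0.605, 0.717 and 0.694 CPM in DEN+CCl4 controls and 0.766, 1.01 and 1.05 CPM after depletion, and at 12.5, 7.66 and 13.1 CPM in N-Ras+AKT controls and 1.07, 2.40 and 0.316 CPM after depletion. Its interaction was -3.61 (SE 0.75, adjusted p = 0.0161). Spp1, osteopontin, was not called, with -0.09 (SE 1.23, adjusted p = 0.975); its change was -2.07 (SE 0.90) in DEN+CCl4 and -2.16 (SE 0.90) in N-Ras+AKT, and it was chosen after its values were seen. The summed list was at 592 to 945.9 and 346.3 to 547.4 CPM in DEN+CCl4, and at 7987 to 11470 and 601.2 to 3982 CPM in N-Ras+AKT. The count of 5 was 2, 2 and 3 without DEN+CCl4 control 7, 8 or 13, 3 without depletion 9 or 10, 2 and 3 without N-Ras+AKT control 3 or 15, 3 and 10 without depletion 6 or 11, and 3 with no filter on low counts.

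MAP kinase output genes, which report Ras signalling, had 3 negative calls of 24 tested (12.5%, against 3.6% of all genes). Their median was -0.70. Spry2, a feedback inhibitor, was at 4.22 to 6.98 and 4.11 to 4.81 CPM in DEN+CCl4 and at 4.53 to 6.34 and 0.632 to 1.62 CPM in N-Ras+AKT, with an interaction of -1.61 (SE 0.44, adjusted p = 0.0372). The 3 calls were lost without any one of DEN+CCl4 control 7, 8 or 13, depletion 6 or 9, or N-Ras+AKT control 15; 1 was left without DEN+CCl4 depletion 10, N-Ras+AKT control 3 or the pair, and there were 5 without N-Ras+AKT depletion 11. Of the injected genes, Akt1 was at 50.6 to 53.5 and 48.0 to 53.6 CPM in DEN+CCl4 and at 874 to 1214 and 501 to 614 CPM in N-Ras+AKT, with an interaction of -0.93 (SE 0.21, adjusted p = 0.0207). Without DEN+CCl4 control 7 or depletion 9, or without the pair, its adjusted p was 0.0594, 0.0555 and 0.0574. Nras was at 27.4 to 32.6 and 20.96 to 28.1 CPM, and 50.7 to 67.1 and 44.9 to 48.2 CPM, with an interaction of -0.12 (SE 0.18, adjusted p = 0.722). Whether the gene counts hold transcripts of the injected human or mouse sequences is not given in the sources used here. Akt1 and Nras were named after their values were seen.

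**Figure D5:**
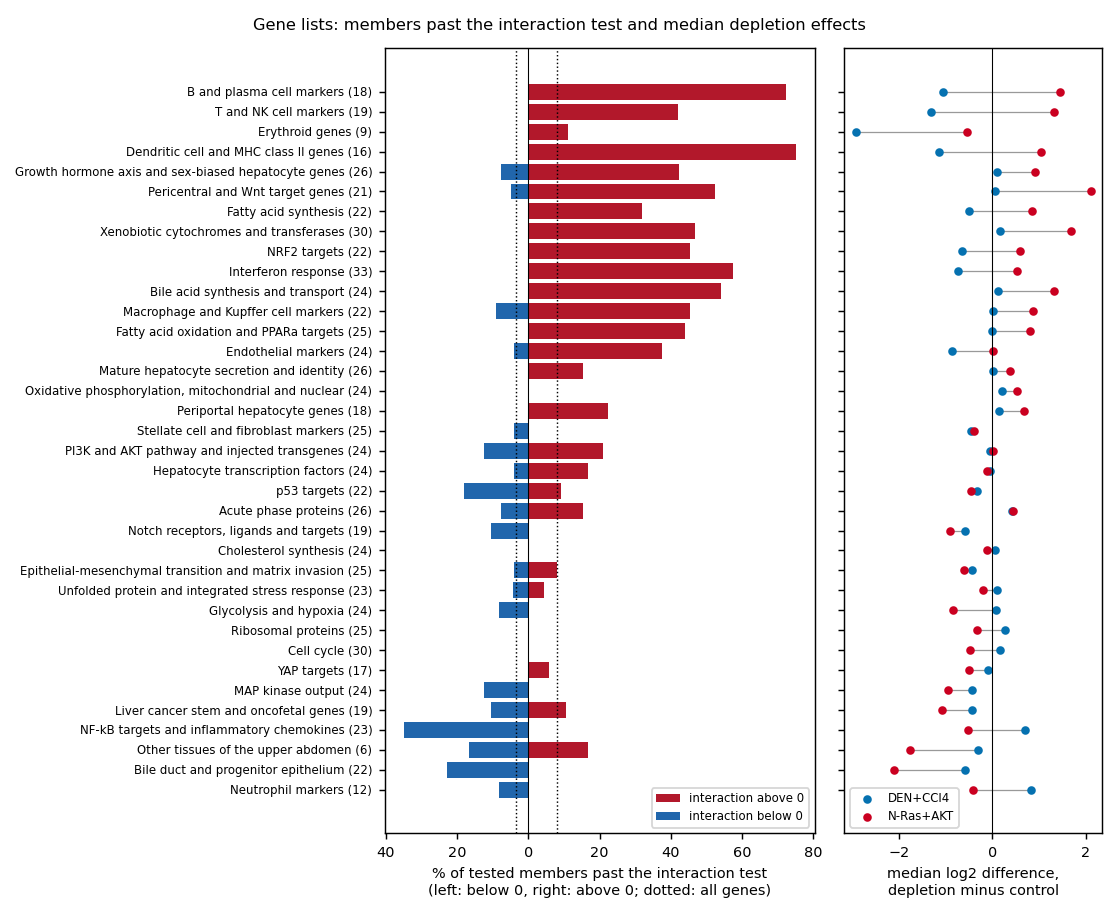
Left, percent of each gene list's tested members past the interaction test in each direction, with dotted lines for all genes. Right, median log2 change of each list in DEN+CCl4 and N-Ras+AKT. Lists are ordered by their median interaction. The interferon, lymphocyte, class II and NRF2 lists have medians of opposite sign in the models, and the metabolic lists differ mainly through N-Ras+AKT. Calls on the NF-kB and bile duct lists are all negative.

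Several lists showed no call in either direction at this depth: cell cycle (30 genes), cholesterol synthesis (24), ribosomal proteins (25) and oxidative phosphorylation (24). The cell cycle median of -0.66 ranged from -1.10 to 0.28 over other settings. Mki67, a proliferation marker named after its values were seen, was at 22.2, 37.5 and 23.5 CPM in DEN+CCl4 controls and 2.12, 68.8 and 27.7 CPM after depletion, and at 21.6, 66.8 and 117 CPM and 42.4, 49.8 and 45.1 CPM in N-Ras+AKT. Its interaction of -0.82 had an SE of 1.22 and ranged from -1.38 to 0.38 over other settings, and the depletion libraries of DEN+CCl4 spread wider than their controls. Ribosomal protein genes had a median of -0.62, with 24 of 25 higher in DEN+CCl4 and lower in N-Ras+AKT by estimate; DESeq2 called 15 of them lower, and edgeR 11 without N-Ras+AKT depletion 11. Oxidative phosphorylation genes had 20 of 24 members called higher by the N-Ras+AKT depletion test, and a median interaction of 0.29. DESeq2 called 4 of these and 1 cholesterol gene higher in the interaction.

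Mature hepatocyte genes had 4 positive and 0 negative calls of 26 (median 0.30), and 20 estimates above 0. The share called was 15.4%, against 7.98% positive among all genes. Leaving out DEN+CCl4 control 7 or 13, depletion 9, N-Ras+AKT depletion 17 or the pair left 2 calls. Periportal genes had 4 positive calls of 18, 22.2% against 7.98% of all genes, and 0 negative (median 0.24). Their positive count was 2 without DEN+CCl4 control 7 or 13, N-Ras+AKT control 15, N-Ras+AKT depletion 17 or the pair, and 1 without DEN+CCl4 depletion 9 or N-Ras+AKT control 3 or with no filter; the median was -0.02 without N-Ras+AKT depletion 17. Hepatocyte transcription factors had 4 positive and 1 negative call of 24 (median 0.01). No positive call was left without DEN+CCl4 control 7 or 8, depletion 9, N-Ras+AKT control 15 or depletion 17; 1 was left without DEN+CCl4 depletion 10, N-Ras+AKT depletion 6 or with upper-quartile scaling, and 2 without DEN+CCl4 control 13, N-Ras+AKT control 3 or the pair, or with RLE or voom. There were 3 negative calls without N-Ras+AKT control 10.

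The acute phase list had 4 positive and 2 negative calls of 26 (median -0.07), 23.1% in either direction against 11.6% of all genes. The positive count was 1 without DEN+CCl4 control 7, depletion 9 or N-Ras+AKT control 3 or 15, and 2 without DEN+CCl4 depletion 6 or the pair; the negative count was 1 without DEN+CCl4 control 7, N-Ras+AKT control 3 or the pair, and 4 by DESeq2. The PI3K and AKT list had 5 positive and 3 negative calls of 24 (median 0.03). No positive call was left without DEN+CCl4 depletion 9, N-Ras+AKT depletion 17 or the pair, 1 without any one DEN+CCl4 control, DEN+CCl4 depletion 6, N-Ras+AKT control 3 or 15 or depletion 6 or with upper-quartile scaling, 2 without DEN+CCl4 depletion 10, and 3 with RLE or no filter. Its negative count was 0 without DEN+CCl4 control 7 or the pair and 1 without DEN+CCl4 depletion 9 or N-Ras+AKT depletion 17.

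The remaining lists held at most 4 calls in a direction, and these counts were not stable, so they are given with their range over single-library omissions. Over all genes 7.98% had a positive and 3.6% a negative call. The p53 targets had 2 positive (1 to 3) and 4 negative calls (1 to 5) of 22, and the oncofetal list 2 (0 to 2) and 2 (2 to 3) of 19. YAP targets had 1 (0 to 1) and 0 (0 to 2) of 17, Notch genes 0 (0 to 2) and 2 (0 to 2) of 19, and matrix invasion genes 2 (0 to 2) and 1 (0 to 4) of 25. Glycolysis genes had 2 negative calls of 24 (0 to 9), and the unfolded protein list 1 positive (0 to 1) and 1 negative (1 to 2) of 23. Among other cell types, neutrophil genes had 1 negative call of 12 (0 to 1, and up to 5 over all other settings). Their median interaction was -1.32, from -1.52 to -1.07 over other settings, with 1 estimate above 0. By estimate 10 of the 12 were higher in DEN+CCl4 and lower in N-Ras+AKT. This list was scarce, summing to 10.53 to 40 CPM in controls. Stellate cell genes had 1 negative call of 25 (0 to 1), 4% against 3.6% of all genes. Erythroid genes had 1 positive call of 9 (1 to 3), and genes of other upper abdominal tissues 1 (0 to 1) and 1 (0 to 2) of 6. The erythroid median interaction was 2.34, from 1.96 to 3.42 over other settings, with 7 estimates above 0. The medians on depletion were -2.93 in DEN+CCl4 and -0.54 in N-Ras+AKT. The erythroid list summed to 136.4 to 180 CPM in DEN+CCl4 controls and 67.73 to 147.9 CPM after depletion, with overlap.

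Called genes also sat side by side in the genome. Taking the tested genes in chromosomal order, 10 runs of 4 or more neighbours were all positive and none all negative. Positive calls were also more common, at 7.98% of tested genes against 3.6% negative. How many runs these shares alone would give was not tested. The longest was on chr1:173468485-173942491 (GRCm38), with 8 genes of the interferon-inducible Ifi200 family from Ifi206 to Mndal. On chr17:34119541-34216321, 7 neighbours of the class II region, H2-DMa, H2-DMb2, H2-DMb1, Psmb9, Tap1, Psmb8 and Tap2, were positive, and a second run of 4, H2-Ob, H2-Ab1, H2-Aa and H2-Eb1, lay on chr17:34238903-34316674. A run of 6 on chr3:107938847-108044894 held glutathione transferase Gstm genes and Gm12498, and one of 6 on chr8:93099015-93337308 held carboxylesterase Ces1 genes and Gm45909. A run of 5 on chr5:105115767-105346472 held Gbp genes and Gm43302, and one of 4 on chr4:62050234-62150863 held Mup genes and Gm12909. Most of these are tandem families whose members share reads, so a run is not a count of independent genes.

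Read as the gap between the models, the contrast compares N-Ras+AKT with DEN+CCl4 before and after depletion. In controls 6901 genes (40.6%; 20.8% higher and 19.8% lower in N-Ras+AKT) differed between the models, and after depletion 5740 (33.7%; 17.9% and 15.8%). Of the 1357 positive genes, 1138 (83.9%) had the lower control estimate in N-Ras+AKT, against 45.8% of genes not called, and the median gap went from -0.71 to 0.64. Of the 613 negative genes 99 (16.2%) did, and the median gap went from 0.72 to -0.48. The gap changed sign in 866 positive and 385 negative genes (63.8% and 62.8%), and in 26.6% of genes not called; it was smaller after depletion in 52.1% and 56.8%, against 54.3% of genes not called. Both gaps share libraries with the interaction, so these shares describe its pattern and do not test it.

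By type of gene, 12.9% of 14149 protein-coding genes were called, 9.62% of 447 lincRNA genes and 11 of 50 immunoglobulin genes, all positive. The share called grew with abundance, from 5.57% in the lowest of 4 equal classes by mean CPM (median SE 0.77) to 17.6% in the highest (median SE 0.20). A gene of low abundance therefore needed a larger difference to pass, and an uncalled scarce gene may still differ.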

How the data were processed

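Bulk RNA-seq of liver tumour tissue was measured in 12 libraries. Per the labels' protocols, poly-A RNA was prepared with a KAPA HyperPrep kit and read on a NovaSeq instrument. The submitters' processing notes name the aligner STAR (2.7.3), the quantifier RSEM (1.3.1), Cell Ranger (3.0.2) and mm10, without saying which served these libraries. The deposited table holds whole-number counts per gene and library, which the authors may have rounded; it was used as deposited. Gene names and positions came from GENCODE M21 (GRCm38): 181 of 55335 identifiers, with 0.0064% of counts, did not match.

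Libraries were grouped by their titles. Counts were filtered with filterByExpr by group (17013 genes), scaled by TMM (factors 0.773 to 1.323) and fitted in edgeR 4.0.16 (R 4.3.3, limma 3.58.1) as 4 group means with robust quasi-likelihood estimation, 8 residual degrees of freedom and a common biological coefficient of variation of 0.238. Tests are two-sided F tests with Benjamini-Hochberg adjustment over all 17013 genes, called at 0.05; SE is the log2 value divided by the square root of F. CPM uses TMM-scaled library sizes, so levels are comparable between libraries for a gene and not between genes of different length. The code was tested on simulated data.

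Gene lists (36 lists, 811 genes) are described by counts and medians, with no set test. Each count is to be read beside the 7.98% positive and 3.6% negative calls over all genes. The members and lists were chosen with earlier results of these data known. Named genes are Prom1 and sets of called genes of at least 5 CPM in a group. The sets are the 12 largest differences and 6 smallest adjusted p per direction. Up to 6 per direction called in both models with opposite signs, and up to 6 per direction called in DEN+CCl4, complete them. Up to 3 called members per list were added with no CPM minimum, so some are scarce. A list without a call gave its member with the smallest interaction p. Other genes with an interaction value are marked in the text. Alternatives were 2 other scalings, 2 other filters, DESeq2 1.42.0, limma voom, edgeR without robust estimation, each library left out and a pair left out. Single-cell data (6 samples) did not enter. Results for 2 genes are not reported here.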

Additional observations from a re-analysis of the deposited data

Results flagged for a closer look

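The 1970 genes whose depletion effect differed between the models by the interaction test are the main result, and each was singled out because the difference itself was tested between the models.

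Of these, 13 genes changed significantly in both models in opposite directions. The positive log2 interactions were 2.16 for Gpr146, 2.92 for Dclk3, 6.35 for Cyp2b13, 6.42 for Serpina6, 3.34 for Rcan2, 3.04 for Tgtp2, 2.69 for Gbp6 and 1.10 for C77080. The negative ones were -1.67 for Icam1, -1.26 for Slc11a2, -1.77 for Nfkb2, -2.80 for Relb and -1.39 for Fam171b. In all but Fam171b, whose N-Ras+AKT ranges overlapped, no depletion library reached the range of its own model's controls. Time after the last dose differed between the models, so its part cannot be told apart from the model's.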

How the results depend on the processing

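The number of genes past the interaction test was 1970, 1357 positive and 613 negative. It stayed within 1.5 times under RLE (1949) and upper-quartile scaling (1972, 1185 and 787), no filter (1608), a filter of 1 CPM (1919), limma voom (1996) and edgeR without robust estimation (1977). DESeq2 called 2984, 1813 positive and 1171 negative. Leaving out 1 library gave 895 to 2326 genes, 656 to 1603 positive and 190 to 835 negative. Without DEN+CCl4 depletion 6 and N-Ras+AKT depletion 17 together the counts were 844, 605 and 239. Every gene shared with the reported calls kept its direction in each setting. Leave-outs have fewer residual degrees of freedom and, in one group, 2 libraries. For Prom1 the interaction was -2.94 to -1.47 over leave-outs, and passed only without N-Ras+AKT depletion 11 (-2.94). Of 116 genes named by rule 111 passed, 48 under every setting and 52 without each library in turn. No called gene that was followed changed sign. Of the uncalled genes both followed and named here, Mki67 (-1.38 to 0.38) and Alb (-0.09 to 0.18) did. Oat, Cyp2c29, Cyp2c50, Spp1, Rela, Sdc1, Ifit2 and Rsad2 were not followed over the settings. Low counts limit scarce immune markers. No paired analysis was possible because the groups compared share fewer than 2 replicate numbers.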

Other observations

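A few genes with a group at 0 in all its libraries had large fitted interactions that are not printed, because the fitted value then depends on the prior count. The urinary protein gene Mup10 was listed at 0 in all 3 DEN+CCl4 depletion libraries and at 7.05 to 52.2 CPM after depletion in N-Ras+AKT, against 0.222 to 1.32 CPM in the controls of both models. A4gnt, a glycosyltransferase gene of gastric-type mucin, was also at 0 after depletion in DEN+CCl4 and went from 0.181 to 0.957 CPM to 3.72 to 7.79 CPM in N-Ras+AKT. Prom2, the paralogue of Prom1, was at 0 in all N-Ras+AKT controls and at 17.7 to 32.8 CPM in DEN+CCl4 controls. Its positive interaction was called (adjusted p = 0.0446 by edgeR) but was not stable. It passed in 7 of 20 other settings, and in 2 of the 12 single-library omissions among them.

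The translation initiation factor gene Eif1a (interaction -1.12), the stress cytokine gene Gdf15 (1.21) and 4933431E20Rik (-1.69) passed under all 20 other settings. Gdf15 was at 32.2 to 50.0 CPM in DEN+CCl4 controls and 22.5 to 25.4 CPM after depletion, and at 10.8 to 16.6 and 17.3 to 20.6 CPM in N-Ras+AKT.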
